A study of Mus musculus with 16 samples.

Results

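Chromatin accessibility was examined around the genes of 8 inflammatory cytokines, Tnf, Lta, Ltb, Il6, Il12a, Il12b, Il23a and Il27, in bone-marrow-derived macrophages (BMDMs) of C57BL/6J mice. The assay was ATAC-seq, which marks open DNA by the places where the Tn5 transposase can insert. Overlapping peaks of the 4 deposited peak lists were merged into 37648 regions, and the 73 regions with a midpoint no more than 100 kb from a cytokine gene's transcription start site (TSS) were taken. Given the genes, the choice of regions used position only and no measured value. The genes themselves were chosen with earlier results of these data known. There were 4 groups of 4 libraries, each of 50000 cells. No genetic change is given for any group. Cells were differentiated in L-cell-conditioned medium and then kept without serum for a day, and the labels do not say whether the libraries of a group came from separate mice. Veh macrophages received the solvent DMSO for 3 h on day 8. T0 macrophages received 500 nM T0901317, a synthetic agonist of the liver X receptors (LXRs), for the same 3 h. LPS macrophages received DMSO for 3 h and then 10 ng/mL lipopolysaccharide, the bacterial ligand of Toll-like receptor 4, for 2 h. T0-LPS macrophages received T0901317 and then LPS at those doses and times. Per the study's methods, LPS went into the medium that still held the agonist, so T0-LPS macrophages had the agonist for 2 h longer than T0 macrophages. Groups with LPS were thus cultured 2 h longer than groups without it, and the effects of LPS and of culture time cannot be told apart.

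Tumor necrosis factor (TNF), lymphotoxin-alpha and lymphotoxin-beta are ligands of one receptor family, and their genes Tnf, Lta and Ltb lie side by side in the major histocompatibility complex. IL-6 acts through the gp130 receptor chain. The IL-12 family consists of cytokines of paired chains: p35 (Il12a) with p40 (Il12b) forms IL-12, p19 (Il23a) with the same p40 forms IL-23, and p28 (Il27) with EBI3 forms IL-27. Macrophages make several of these cytokines when Toll-like receptors activate NF-kB, AP-1 and interferon regulatory factors, and LXRs, nuclear receptors for oxysterols, are known to dampen inflammatory genes in macrophages.

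Each group was represented by 1 list of enhancer peaks, called by the authors on its 4 libraries together. Values below are therefore single values with no replicate check and no p-value. The lists held between 29839 peaks (T0) and 35551 peaks (Veh), with median peak-caller scores between 292 and 372. Because this score grows with depth, it was converted into a percentile within its own list, where 100 marks the strongest peak. Between 2 lists, a region was called opened or closed when it had a peak in only one of them, and it was said to rise or fall when it had a peak in both and its percentile moved by 20 points or more. Of the 8 macrophage genes checked (Csf1r, Adgre1, Cd68, Itgam, Spi1, Lyz2, Mertk, Cd14), 8 had a peak within 1 kb of the TSS in every list. None of 5 T cell genes had one, and neither did Cd79a, Pax5, Ly6g, Mpo, Elane, Pdgfra, Col3a1 or Xcr1. Ms4a1 of the B cell list, S100a8 of the neutrophil list, and Flt3 and Zbtb46 of the dendritic cell list had a peak in every list, and the fibroblast gene Col1a1 had one in Veh alone, at percentile 4.80. What part such cells had in the values below was not tested. In pooled cells, fewer cells with an open site and a site less open in each cell cannot be told apart.

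Regions on which the results turn are shown here as the 200 bp at their midpoint, on the + strand of GRCm38, with matches to the NF-kB consensus and to the AP-1 consensus TGANTCA in capitals. The first lies 9788 bp upstream of the Il12b TSS and showed the highest LPS percentile among the regions that moved.

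Il12b 9788 bp upstream (chr11:44390175-44390374): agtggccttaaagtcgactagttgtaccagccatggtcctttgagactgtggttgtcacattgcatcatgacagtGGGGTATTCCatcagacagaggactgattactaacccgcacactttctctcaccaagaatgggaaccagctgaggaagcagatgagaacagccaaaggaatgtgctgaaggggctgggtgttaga

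Sites from the Tnf cluster follow, because they include opened and closed sites within 17 kb of the gene: a site that spanned the 3′ end of Tnf and opened with LPS, with an AP-1 match and overlapping NF-kB matches; an opened site upstream of Lta with overlapping NF-kB matches; and the site inside Tnf that closed with LPS, with a pair of AP-1 matches. The nearest protein-coding TSS to the opened site upstream of Lta is that of Gm16181.

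Tnf 2893 bp downstream of the TSS (chr17:35199014-35199213): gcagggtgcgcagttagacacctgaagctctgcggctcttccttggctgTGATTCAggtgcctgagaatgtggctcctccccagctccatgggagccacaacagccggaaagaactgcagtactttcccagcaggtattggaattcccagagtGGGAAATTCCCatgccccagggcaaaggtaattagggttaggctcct
Tnf 16703 bp upstream (chr17:35218610-35218809): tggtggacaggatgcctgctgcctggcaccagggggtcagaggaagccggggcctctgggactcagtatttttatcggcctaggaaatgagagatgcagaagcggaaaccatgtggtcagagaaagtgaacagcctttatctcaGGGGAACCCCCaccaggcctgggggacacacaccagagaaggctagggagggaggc
Tnf 1368 bp downstream of the TSS (chr17:35200539-35200738): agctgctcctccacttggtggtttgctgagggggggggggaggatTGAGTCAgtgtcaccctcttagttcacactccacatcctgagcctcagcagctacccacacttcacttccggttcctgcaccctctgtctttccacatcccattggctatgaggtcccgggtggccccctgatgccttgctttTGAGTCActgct

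The pair upstream of Il27 shows an opened site with an NF-kB match and a risen site with an AP-1 match.

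Il27 12297 bp upstream (chr7:126607138-126607337): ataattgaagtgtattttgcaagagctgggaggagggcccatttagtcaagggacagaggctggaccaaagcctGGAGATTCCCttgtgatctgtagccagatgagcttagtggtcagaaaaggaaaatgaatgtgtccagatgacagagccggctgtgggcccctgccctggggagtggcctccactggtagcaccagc
Il27 4224 bp upstream (chr7:126599065-126599264): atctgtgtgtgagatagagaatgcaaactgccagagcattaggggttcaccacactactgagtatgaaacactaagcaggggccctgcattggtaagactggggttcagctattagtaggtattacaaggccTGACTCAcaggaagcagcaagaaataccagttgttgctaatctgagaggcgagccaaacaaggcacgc

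By contrast, the Il6 promoter held an NF-kB match and an AP-1 match but was open in all 4 lists. The 250 bases before its RefSeq start are given for comparison.

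Il6 promoter (chr5:30012864-30013113): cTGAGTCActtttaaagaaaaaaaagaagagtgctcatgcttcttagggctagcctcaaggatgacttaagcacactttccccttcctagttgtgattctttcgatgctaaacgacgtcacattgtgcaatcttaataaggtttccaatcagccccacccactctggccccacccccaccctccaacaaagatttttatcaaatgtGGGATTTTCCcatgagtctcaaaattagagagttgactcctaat

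LPS opened or strengthened regions near 5 of the 6 loci formed by the 8 genes. At Il23a this was 1 weak peak at LPS percentile 1.29, 66491 bp from the TSS, while 1 region there fell. Of all protein-coding genes, 23.9% had 1 or more LPS-opened regions within 100 kb. All 5 regions around Il6 were already open in Veh and stayed under the 20-point step. Of the 69 member regions with an LPS peak, 11 had none in Veh (LPS-opened, 15.9%, Wilson 95% interval 9.14 to 26.3), against 6.14% over all regions. Of 58 regions with a peak in both lists, 10 rose with LPS (17.2%), against 3.92% over all regions, and 2 fell (3.45%), against 9.14%. LPS-closed regions were 3 of 61 with a Veh peak (4.92%), against 13.0%. The median percentile move with LPS was 2.74 points in the 58 shared member regions, while the median over all shared regions was -2.01. Wilson intervals cover counting error only, and neighbouring regions share genes and libraries. A peak can also be missing because the enhancer filter removed it. In 7 of the 11 LPS-opened regions the numbering of the flanking Veh peaks left no room for such a removed peak, which was so for 61.3% of all LPS-opened regions. The opened count depended on weak peaks: it was 4 when a score of 200 or more was required and 18 when the lists were shortened to equal length.

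T0 alone opened none of the 49 member regions with a T0 peak, a count for which the Wilson interval reaches 7.27%, and 0.729% of all regions with a T0 peak were T0-opened. T0-closed regions were 12 of 61 (19.7%, interval 11.6 to 31.3), against 18.1% over all regions, so their share was near that of the whole list. They were mostly weak peaks, with Veh percentiles from 1.1 to 32.3 and a median of 11.1, near the median of 11.8 over all T0-closed regions. In 11 of the 12 the T0 list left no room for a removed peak, against 62.6% of all T0-closed regions. Of 49 shared regions, 4 fell with T0 (8.16%), against 10.4%, and 0 rose, against 0.0762%. The T0 list was the shortest, and the median percentile move was -5.91 in member regions and -5.58 over all shared regions. When only the shared regions were ranked, these medians were 2.08 and 0.13, so the direction of the member median turned. With lists shortened to equal length, T0-closed regions numbered 3 and T0-opened regions 6.

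In LPS-treated macrophages, 8 of 69 member regions lost their peak with T0 (T0-closed-in-LPS, 11.6%, interval 5.99 to 21.2), against 9.97% over all regions, and 2 of 63 had a peak in T0-LPS alone (T0-opened-in-LPS, 3.17%), against 3.37%. Of 61 shared regions, 1 rose (1.64%), against 0.929%, and 1 fell (1.64%), against 4.36%. The 8 closed regions had LPS percentiles between 1.3 and 25.1, with a median of 7.1, against 9.7 over all T0-closed-in-LPS regions. With a score of 200 or more required, none of the 8 was counted.

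The LPS response was also read between the lists of the T0-treated groups, T0-LPS against T0. T0-LPS cells also had the agonist for 2 h longer, so the effects of LPS and of that exposure cannot be told apart in this comparison. There 16 of 63 member regions opened (25.4%, interval 16.3 to 37.3), against 11.7% over all regions, and 2 of 49 closed (4.08%), against 7.70%. Of the 16 opened regions, 8 had a peak in every list but T0, so they were open in Veh as well and were also T0-closed. Another 7 had a peak in LPS and T0-LPS alone, and 1 in T0-LPS alone. These patterns made up 4.98%, 2.69% and 0.786% of all regions. Of 47 shared regions, 8 rose (17.0%), against 7.76%, and 1 fell (2.13%), against 5.62%. The comparison shares the T0-LPS list with the one above and the T0 list with the one before it, so these counts are not independent of each other.

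**Figure D1:**
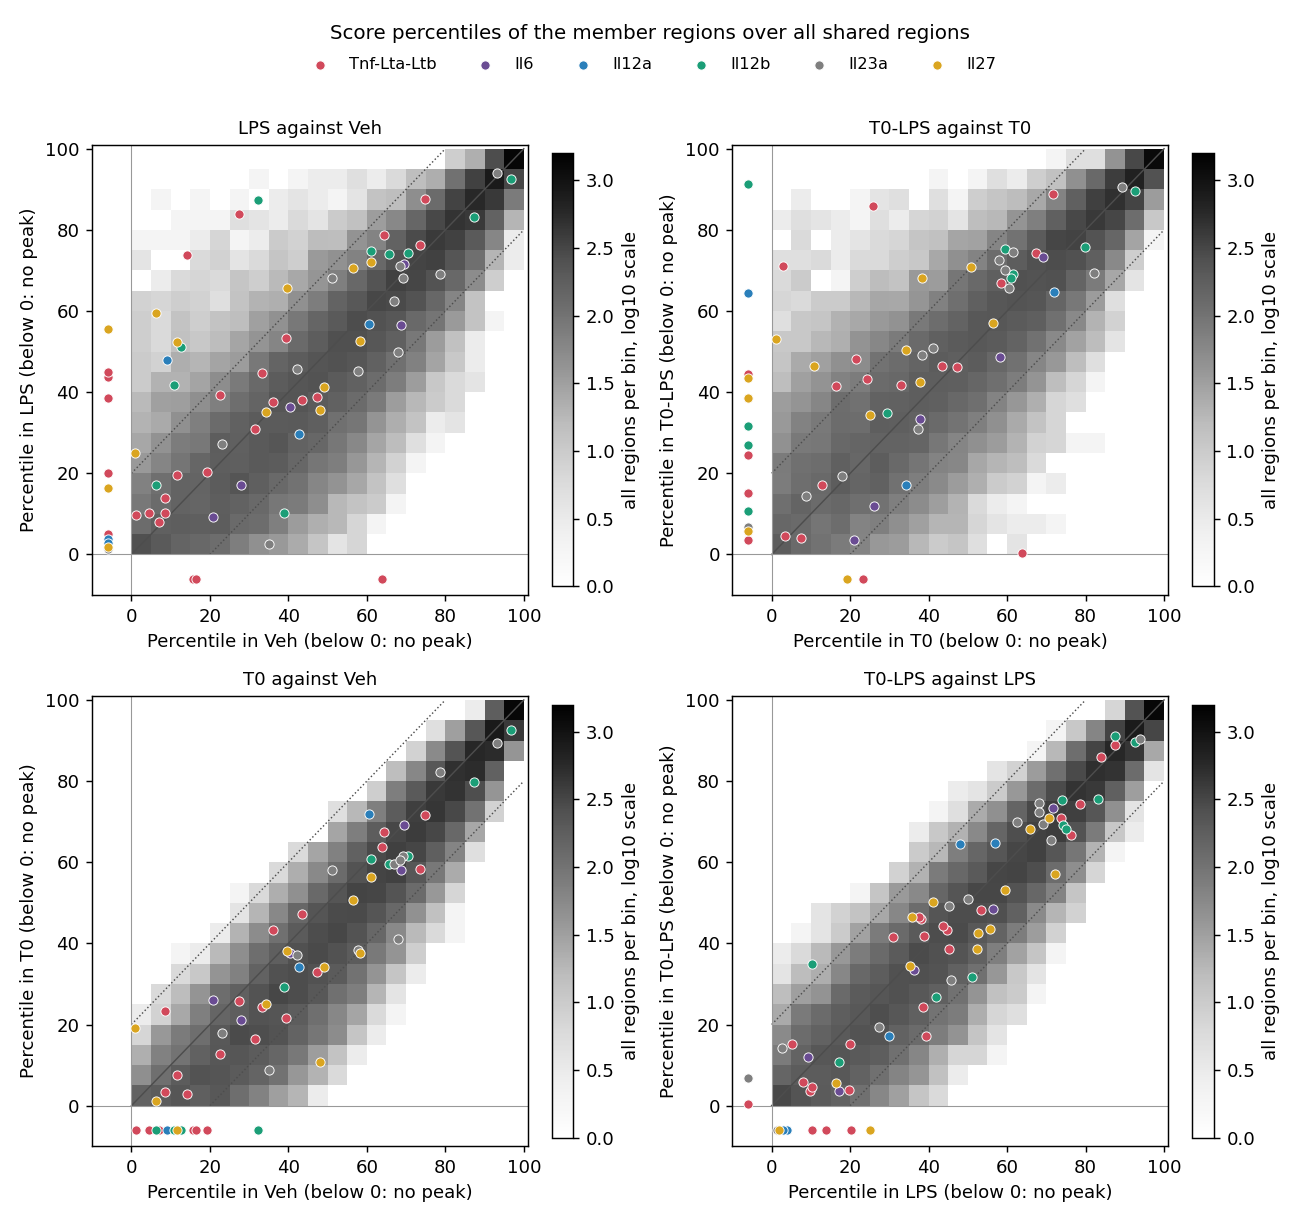
Score percentile of each region in the list with the agent (vertical axis) against the list without it (horizontal axis), for LPS against Veh, T0-LPS against T0, T0 against Veh and T0-LPS against LPS. Grey squares give the number of all regions per bin of 5 points on a log10 scale, coloured points are the 73 member regions by locus, points below 0 have no peak in that list, the solid line marks equal percentiles and the dotted lines a move of 20 points. In the LPS panels 10 and 8 points lie above the upper dotted line, and none does in the panel of T0 against Veh.

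Tnf, Lta and Ltb share the same 27 regions, since their TSSs lie within one window on chromosome 17, together with the TSSs of 15 other protein-coding genes. This cluster held 5 of the 11 LPS-opened regions. At least as many LPS-opened regions within 100 kb were found for 41 of 21951 protein-coding genes (0.187%). These include Tnf, Lta and Ltb, and genes with overlapping windows can be counted through the same regions. The share was not adjusted for the number of regions in a window. A peak covered the Tnf TSS in every list (chr17:35201698-35202254). Its percentile was 47.3 in Veh, 33.0 in T0, 38.7 after LPS and 41.8 in T0-LPS, so neither agent moved the promoter by 20 points. No region was centred within 1 kb of the Lta or Ltb TSS.

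The largest rises of the cluster lay upstream of Lta. At 8191 bp upstream of Tnf and 4847 bp upstream of Lta (chr17:35209836-35210561), the percentile was 14.2 in Veh and 2.96 in T0, and it was 73.8 in LPS and 71.0 in T0-LPS. LPS thus raised it by 59.6 points, and T0 before and during LPS changed it by -2.8 points. At 17780 bp upstream of Tnf (chr17:35219515-35220060), the percentile was 27.4 in Veh and 25.9 in T0, and it was 83.9 in LPS and 86.0 in T0-LPS. The nearest protein-coding TSS to this second site was that of Gm16181. Both sites ranked high in the lists with LPS and low in those without it, whether or not T0 was present.

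The 5 LPS-opened regions of the cluster had no peak in either Veh or T0 and had one in both LPS and T0-LPS. One spanned the 3′ end of Tnf (2893 bp from its TSS, chr17:35198655-35199573), at percentile 43.7 in LPS and 44.4 in T0-LPS. A weaker neighbour at 3737 bp (chr17:35198061-35198480) had percentiles of 5.11 and 15.2. These sites lie between the convergent ends of Tnf and Ltb. Upstream of Lta, the region at 16703 bp from the Tnf TSS (chr17:35218550-35218870) was at 45.1 in LPS and 38.5 in T0-LPS, and the region at 6409 bp (chr17:35208228-35208605) was at 20.0 and 15.2. The nearest protein-coding TSS was that of Gm16181 for the former and that of Lta for the latter. For these 4 sites neither the Veh nor the T0 list left room for a removed peak. The fifth lay in an intron of Aif1, which encodes the macrophage protein IBA1 (27340 bp from the Tnf TSS, chr17:35174494-35174840), at 38.5 in LPS and 24.4 in T0-LPS, and the Veh list had room for 1 removed peak there.

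One site inside Tnf went the other way. The region in a Tnf intron at 1368 bp from the TSS (chr17:35200412-35200867) was at percentile 63.8 in Veh and 63.7 in T0. It had no peak in LPS, without room for a removed one, and was among the weakest peaks of T0-LPS at 0.436. It was thus LPS-closed, T0-opened-in-LPS at the lowest end of the list, and fell by 63.3 points from T0 to T0-LPS. The Tnf gene therefore held a site lost with LPS and a site at its 3′ end gained with LPS, while its promoter stayed open.

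Ltb carried 1 peak of its own, in a coding exon 1383 bp from its TSS (chr17:35195725-35195919), which was present in Veh alone at percentile 16.5. A site nearest to Lst1, a leukocyte transcript next to Ltb, was likewise present in Veh alone, at 15.8. Both were LPS-closed and T0-closed. The 4 other T0-closed regions of the cluster lay at Lst1 and at D17H6S53E, at Veh percentiles of 1.09, 4.47, 7.02 and 19.3. Of these, 2 were found again in T0-LPS, at 3.59 and 5.86. The other two, at LPS percentiles of 10.3 and 20.3, were absent from T0-LPS, as was a site in an intron of Gm16181 that was at 13.9 in LPS. One region in an untranslated part of Ddx39b, an RNA helicase gene 40842 bp upstream of Tnf, was at 39.3 in LPS and 17.1 in T0-LPS, against 22.7 in Veh and 12.8 in T0, and was the only member region that fell with T0 in LPS.

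**Figure D2:**
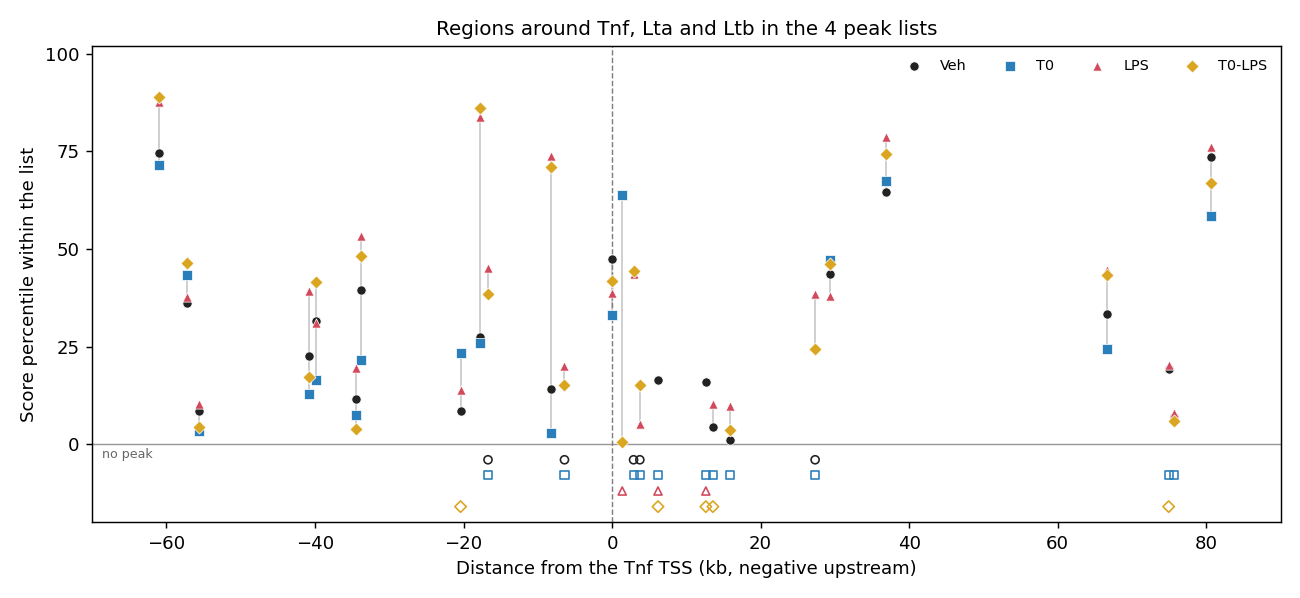
Score percentile within each list (vertical axis) of the 27 regions around Tnf, Lta and Ltb against the distance of their midpoint from the Tnf TSS in kb, with the lists Veh (circles), T0 (squares), LPS (triangles) and T0-LPS (diamonds). Open symbols below 0 mark lists with no peak, and grey lines join the highest and lowest value of a region. The sites 8191 and 17780 bp upstream separate into a pair of high values with LPS and a pair of low values without it, and the site 1368 bp downstream shows the reverse.

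Il6, a cytokine gene that LPS is known to induce in macrophages, showed no opened, closed, risen or fallen region. All 5 of its regions had a peak in all 4 lists. The promoter region (chr5:30012768-30013421) was at percentile 40.4 in Veh, 37.7 in T0, 36.4 after LPS and 33.5 in T0-LPS. The site 64767 bp upstream was at 69.4, 69.1, 71.6 and 73.3 in the same order, a range of under 5 points. Downstream, the site at 23032 bp was at 68.7, 58.2, 56.5 and 48.6. The sites at 26938 bp and, in the neighbouring gene Tyms, at 60394 bp were highest in a list without LPS, at 26.1 in T0 and 27.9 in Veh, and were lowest at 9.29 in LPS and 3.59 in T0-LPS. Moves with LPS against Veh thus ran from -12.2 to 2.2 points at this locus.

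Il12b, which encodes the p40 chain shared by IL-12 and IL-23, had 10 regions, all with a peak in Veh, LPS and T0-LPS. The region 9788 bp upstream (chr11:44389929-44390622) was at percentile 32.3 in Veh, was absent from T0, and was at 87.4 in LPS and 91.2 in T0-LPS. It rose by 55.1 points with LPS and was the strongest of the 12 T0-closed member regions. The T0 list left no room for a removed peak there. The site nearest the TSS, 1009 bp upstream (chr11:44398814-44399295), was at 61.1, 60.9, 74.9 and 68.1 in Veh, T0, LPS and T0-LPS, so it was open in all groups and moved by less than 20 points.

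Downstream of Il12b, 3 weak Veh peaks were also absent from T0, and 2 of them rose with LPS. None of the 3 had Il12b as its nearest protein-coding gene. The nearest TSS was that of Ublcp1 for the sites at 76584 and 78580 bp and that of Rnf145 for the site at 96253 bp. At 76584 bp the percentile was 12.6 in Veh, 51.1 in LPS and 31.6 in T0-LPS. The neighbour at 78580 bp was at 10.8, 41.8 and 26.9, and the site at 96253 bp was at 6.14, 17.2 and 10.8 in the same lists. All 3 were lower in T0-LPS than in LPS, by less than 20 points. The first stood just under the step, with a move of -19.5 points. One site, 14908 bp downstream (chr11:44414683-44415260), was the sole member region that fell with LPS and rose with T0 in LPS. It was at 38.8 in Veh and 29.3 in T0, and it was 10.3 in LPS and 34.9 in T0-LPS. The remaining 4 sites were strong in every list, between 59.5 and 96.7.

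Il12a, which encodes the p35 chain, had 5 regions and no other protein-coding TSS in its window. A site 57885 bp upstream (chr3:68632524-68632995) was at percentile 9.01 in Veh and absent from T0, with room for removed peaks. It was at 47.9 in LPS and 64.4 in T0-LPS, so it rose by 38.9 points with LPS. The 2 LPS-opened regions of this locus were among the weakest peaks of the LPS list and were found in no other list: an intronic site 660 bp from the TSS (chr3:68691215-68691394) at 2.80, and a site 52494 bp upstream at 3.88. All other lists had room for a removed peak at both. Sites 13519 bp upstream and 18943 bp downstream were shared. The former was lower in each list from Veh (42.7) through T0 (34.2) and LPS (29.8) to T0-LPS (17.1), and the latter was at 60.5, 71.9, 56.8 and 64.7.

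Il27, which encodes the p28 chain, had 13 regions, of which 3 opened and 4 rose with LPS. At least as many LPS-opened regions were found for 454 protein-coding genes (2.07%), Il27 and genes with overlapping windows included. At 12297 bp upstream (chr7:126607077-126607400) there was no peak in Veh or T0 and no room for one, and the percentile was 55.6 in LPS and 43.5 in T0-LPS. It was the strongest of the 11 LPS-opened member regions. At 4224 bp upstream (chr7:126598990-126599340) the percentile was 6.14 in Veh, 1.21 in T0, 59.4 after LPS and 53.2 in T0-LPS. The site nearest the TSS, 1172 bp upstream (chr7:126595985-126596242), appeared in LPS alone, at 1.82.

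The further changes around Il27 lay in neighbouring genes. In an intron of Eif3c, a translation initiation factor gene 29067 bp downstream, the percentile was 11.5 in Veh, 52.3 in LPS and 38.5 in T0-LPS, and no T0 peak was called. Beside it, the Eif3c site at 28548 bp was at 48.1 in Veh and 10.7 in T0, and it was 35.7 in LPS and 46.5 in T0-LPS, so it fell by 37.4 points with T0 alone. This was the largest fall with T0 among the member regions. Near Nupr1, a stress-response gene, 3 sites were found. The first, 30654 bp upstream of Il27, was at 39.6, 38.2, 65.8 and 68.2 in Veh, T0, LPS and T0-LPS. The second, at 27098 bp, was at 0.944, 19.1 and 25.1 in Veh, T0 and LPS and was absent from T0-LPS. The third, at 33213 bp, opened with LPS, at 16.3 in LPS and 5.69 in T0-LPS, where the Veh list had room for 1 removed peak. A site in Sgf29, 60976 bp upstream, was at 58.3 in Veh and 37.7 in T0 and so fell by 20.5 points, and was at 52.7 and 42.5 in LPS and T0-LPS.

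Il23a, which encodes the p19 chain, had 13 regions and 11 other protein-coding TSSs in its window, and 11 of its regions had a peak in all 4 lists. The site nearest the TSS (chr10:128298179-128298652) was at percentile 57.8 in Veh, 38.3 in T0, 45.2 after LPS and 49.2 in T0-LPS. Its move with T0 was -19.5 points, just under the step. It lies 337 bp inside the annotated gene record and 331 bp outside the only transcript of the basic annotation. At Cnpy2, 23739 bp upstream, the percentile was 35.1 in Veh and 8.73 in T0, and it was 2.51 in LPS and 14.3 in T0-LPS, so it fell with either agent. An intronic site of Cs, the citrate synthase gene, 46331 bp upstream, was at 68.0 in Veh and 41.1 in T0, and at 50.0 and 51.0 in LPS and T0-LPS. A peak at percentile 1.29 near Timeless was present in LPS alone, and 1 at 6.84 in Spryd4 in T0-LPS alone.

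**Figure D3:**
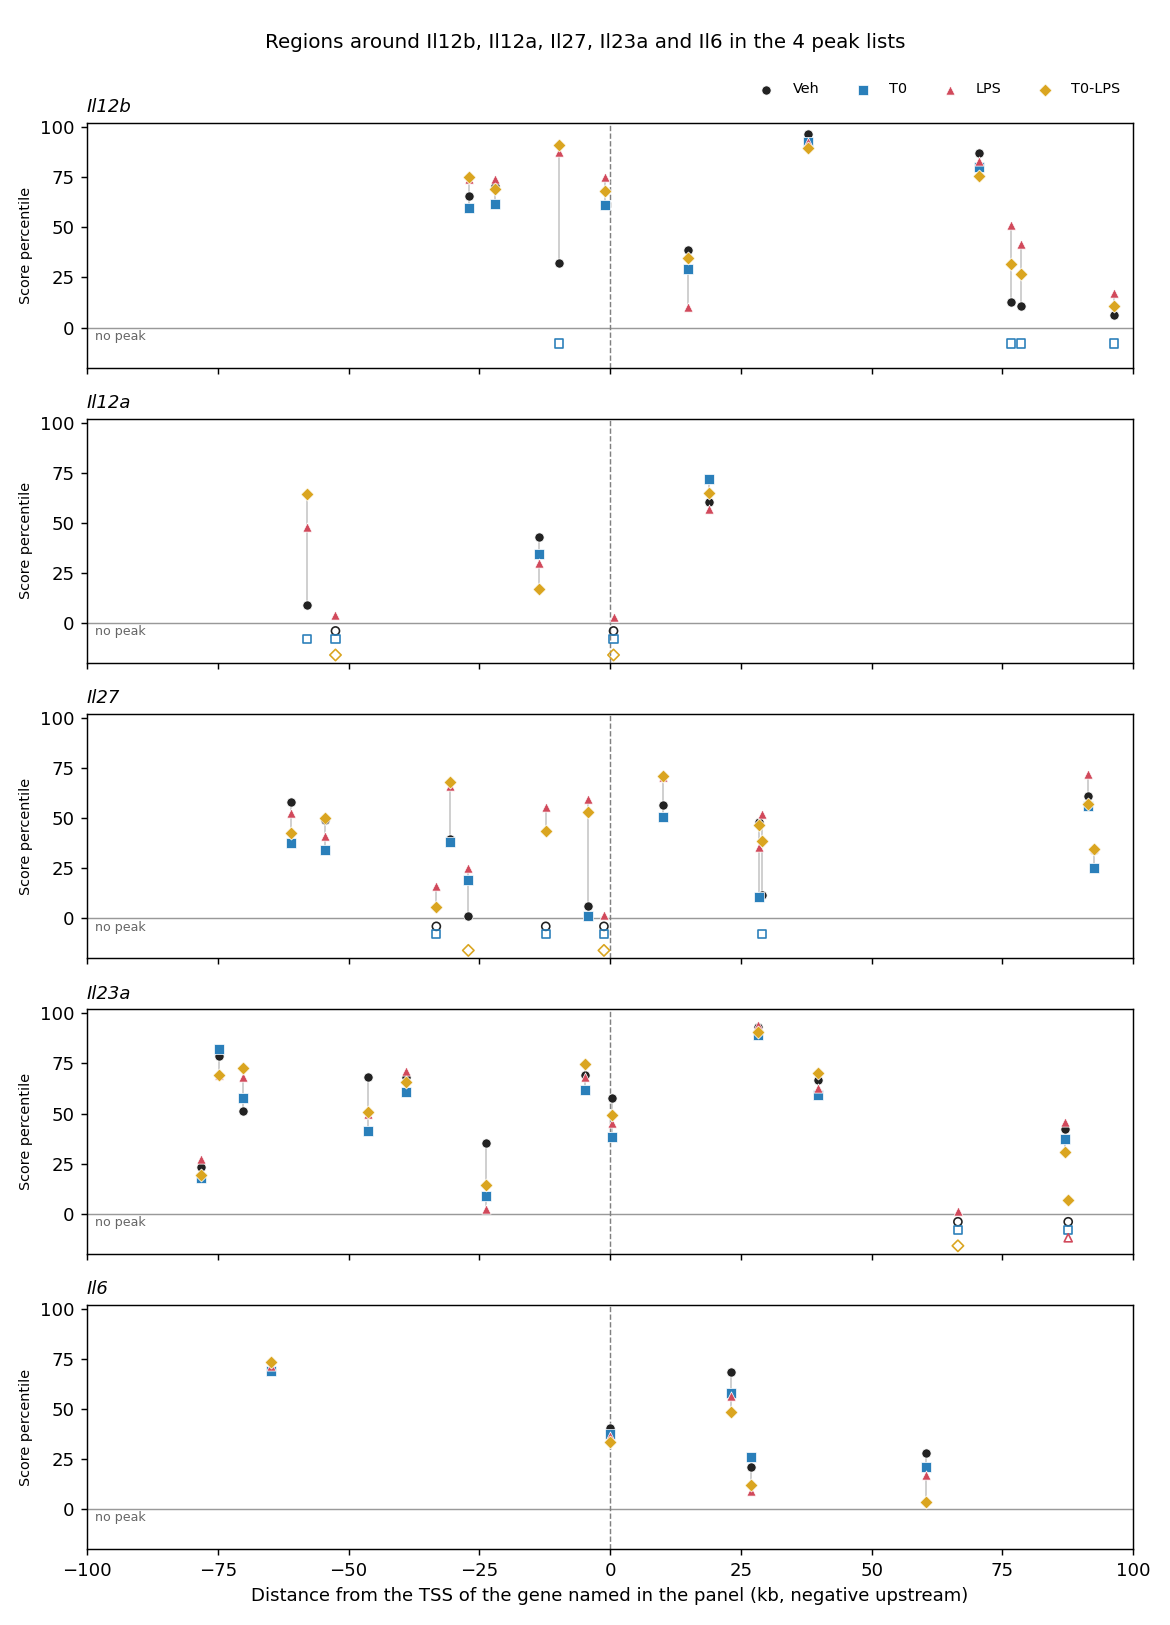
Score percentile within each list (vertical axis) of the regions around Il12b, Il12a, Il27, Il23a and Il6, against the distance of their midpoint from the TSS of the gene in kb, with 1 panel per gene, for Veh (circles), T0 (squares), LPS (triangles) and T0-LPS (diamonds). Open symbols below 0 mark lists with no peak. The Il12b site 9788 bp upstream and the Il27 sites 4224 and 12297 bp upstream are high in both lists with LPS, and the 5 Il6 sites have no open symbol.

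Of the 21 regions that opened or rose with LPS, 5 had no peak in T0-LPS: the pair of LPS-opened Il12a sites, the Il27 sites 1172 and 27098 bp upstream and the site near Timeless, all at LPS percentiles of 25.1 or lower. The sites 8191 and 17780 bp upstream of Tnf, at the 3′ end of Tnf, and 9788 bp upstream of Il12b moved by -2.8, 2.1, 0.7 and 3.8 points from LPS to T0-LPS. The Il27 sites 4224 and 12297 bp upstream moved by -6.2 and -12.1 points. The Il12a site 57885 bp upstream moved by 16.4 points. Larger downward moves under the step were those of the pair at 76584 and 78580 bp downstream of Il12b, by -19.5 and -14.9 points, and of the Aif1 and Eif3c intronic sites, by -14.0 and -13.8 points. Over all regions shared by the LPS and T0-LPS lists the median move was -1.76 points, and over member regions it was -2.85.

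Of the 73 regions, 46 had a peak in all 4 lists (63.0%, against 70.2% of all regions). The next patterns were 8 regions present in all lists but T0, where all regions had 4.98% of this pattern, and 7 present in LPS and T0-LPS alone, where they had 2.69%. Regions with a cytokine gene as the nearest protein-coding TSS numbered 25. They held 7 LPS-opened regions, 4 that rose with LPS, 3 T0-closed regions and 0 that fell with T0. The 48 regions nearest to another gene held 4, 6, 9 and 4 in the same order. They made up most of the 73 regions and held most of the T0 changes. Over all regions with the peaks needed for each call, the shares were 6.14%, 3.92%, 18.1% and 10.4% in that order. By midpoint, 38 regions lay between genes, 14 in introns, 14 in untranslated parts of exons, 3 in coding exons and 4 in exons of noncoding transcripts, and 31 were within 1 kb of a protein-coding TSS. Their median GC content was 55.0%, against 52.0% over all regions. At the edge of the window, the outermost regions inside it were the Il12b site at 96253 bp and the Il27 site at 92567 bp, at 34.3, 25.0, 35.2 and 34.4 in Veh, T0, LPS and T0-LPS. Just outside lay an Il27 region at 100458 bp, present in LPS alone at 6.32, and an Il12b region at 104292 bp, at 69.1 in LPS and 67.6 in T0-LPS and absent from the others. An Il23a region at 104363 bp was at 72.1, 72.1, 80.5 and 72.9 in Veh, T0, LPS and T0-LPS. A region 105061 bp upstream of Ltb was at 68.3, 69.1, 70.9 and 72.5.

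Sequence was not used in choosing the regions. In the central 200 bp, on either strand, the NF-kB consensus matched 8 of the 21 member regions that opened or rose with LPS (38.1%) and 2 of the 52 others (3.85%). The share was 4.30% of all regions and 19.2% of the 3201 regions of the whole series that opened or rose. Besides the shown sites of Il12b, Tnf and Il27, the 8 comprised the Aif1, Eif3c and Nupr1 intronic sites and the Il27 site 1172 bp upstream. AP-1 (TGANTCA) matched 5 of 21 (23.8%) and 6 of 52 (11.5%), against 16.6% of all regions and 19.1% of all that opened or rose. The ISRE, the element of interferon regulatory factors, matched 4 of 21 (19.0%) and 3 of 52 (5.77%), against 3.80% of all regions and 8.56% of all that opened or rose. PU.1 (GAGGAAGT), the macrophage lineage factor, matched 0 of 21 and 5 of 52 (9.62%), against 8.55% and 6.97%. C/EBP (TTGCNNAA) matched 2 of 21 (9.52%), against 10.7% of all regions and 16.5% of all that opened or rose, and STAT (TTCNNNGAA) 1 of 21 (4.76%), against 5.52% and 6.72%. The half-site of nuclear receptors (AGGTCA) matched 7 of the 73 (9.59%), against 11.9% of all regions. The exact DR4 element, the pairing of half-sites to which LXR binds, matched none, against 0.0213%, and CRE (TGACGTCA) matched none, against 1.09%. ISRE and NF-kB matches of the Il27 site 12297 bp upstream did not overlap. A match is a description of the letters and not a measured binding site.

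**Figure D4:**
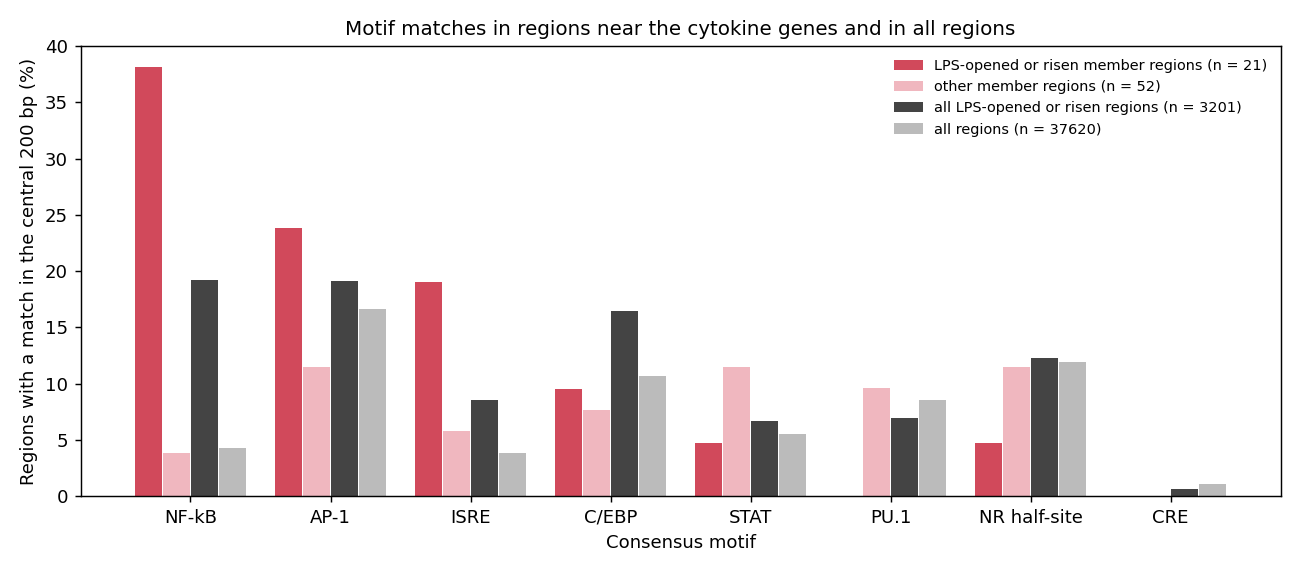
Percentage of regions with a match to each consensus motif in the central 200 bp (vertical axis, from 0), for the 21 member regions that opened or rose with LPS, the 52 other member regions, the 3201 opened or risen regions of the whole series and all regions on the main chromosomes. The NF-kB bars stand at 38.1, 3.85, 19.2 and 4.30%.

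For the 4 genes with a region within 1 kb of the TSS, the protein-coding genes with the most similar percentiles over the 4 lists were sought, by Euclidean distance over 4 values. For Tnf these were Gm20441 and Gstt3, at 2.55 points each, for Il6 Camk1d (1.84) and Pnpla2 (3.42), for Il23a Cdk8 (3.24) and Faf2 (4.55), and for Il12a, present in LPS alone, Rimkla and Sowahd (0.256 each). Within 5 points lay 13 genes for Tnf, 6 for Il6, 3 for Il23a and 322 for Il12a.

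Other genes of these pathways were taken from a list of 27: 10 receptors, the IL-27 partner chain gene Ebi3, 9 signal transducers, 3 genes of cytokine processing or mRNA decay and 4 feedback inhibitors. An LPS-opened region lay within 100 kb of 16 of the 27, against 23.9% of all protein-coding genes, a background that includes genes with no region nearby. LPS-closed regions lay near 22, against 41.7%, and T0-closed regions near 23, against 51.2%. T0-opened regions lay near 2, against 3.63%, namely the adjacent receptor genes Tnfrsf1a and Ltbr, which share the region. T0-closed-in-LPS regions lay near 17, against 34.3%, and T0-opened-in-LPS regions near 8, against 14.9%. From T0 to T0-LPS, opened regions lay near 19, against 36.7%, and closed regions near 8, against 24.1%. Of the 8 cytokine genes themselves, 6 had an LPS-opened region nearby, 3 of them through the shared Tnf cluster, and 6 had a T0-closed region.

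Socs3, an inhibitor of gp130 signaling, had 5 LPS-opened regions, more than any other gene of the list. The strongest, 8006 bp upstream of its TSS, was at percentile 65.0 in LPS and 57.1 in T0-LPS and absent from Veh and T0. The weakest, at 4.54 and 1.06 in LPS, were absent from T0-LPS. Of all protein-coding genes, 0.187% had 5 or more LPS-opened regions. Tnfaip3, which encodes the NF-kB inhibitor A20, had 4, the strongest at 59.7 in LPS and 45.8 in T0-LPS and another at 53.8 and 56.8. Its LPS-opened sites at 19.1 and 0.105 in LPS were absent from T0-LPS. Tnfrsf1b, the gene of TNF receptor 2, had 4 LPS-opened regions as well. A site 36669 bp upstream of the Tnfrsf1b TSS was at 33.1 in Veh, absent from T0, and at 83.2 in LPS and 80.1 in T0-LPS. That presence pattern was also found at the Il12b site 9788 bp upstream. Zfp36, whose product destabilizes Tnf mRNA, had a site 1807 bp upstream at 1.48 in Veh, 45.6 in LPS and 43.0 in T0-LPS. Ebi3 had 13 regions, none of them opened or closed in any comparison.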

How the data were processed

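ATAC-seq was performed on 16 libraries, 4 per group. Per the submitters' processing notes and the study's methods, the authors trimmed reads with cutadapt, aligned them to mm10 with Bowtie2, removed duplicates with SAMtools, used MACS2 (q threshold 0.001) for peak calling on the 4 libraries of each condition together with a fixed shift and extension, and kept peaks at macrophage enhancers. The deposited lists give a position, a numbered name and a score per peak. The score is the authors' peak-caller score, whose scale is not given in the sources used here, so it was used only as a rank within a list. Depth per library is unknown, because no read counts were used.

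Peaks overlapping by at least 1 bp were merged across the 4 lists. TSSs were the 5′ ends of GENCODE vM21 gene records (GRCm38). A missing peak had room for a removed one where the name numbers of the peaks on either side skipped a value. Opened, closed, risen and fallen regions were counted and set beside the same shares over all regions. No test was possible with 1 list per group, and T0-LPS against T0 was compared in addition. Motifs were scanned as consensus sequences. RefSeq promoters of GRCm38 were found for 6 of the 8 genes. The named regions were those opened, closed or moved by 20 points in a comparison of the design, and the one nearest each TSS. The genes most like a member were the closest pair by Euclidean distance with a TSS over 200 kb away. Members, gene lists and comparisons were chosen with earlier results of these data known. Scripts in Python 3.11.15 with NumPy 2.4.6 and samtools 1.23.1 were tested on simulated lists. Alternatives varied the window, merging, overlap, score minimum, list length, percentile step and motif window.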

Additional observations from a re-analysis of the deposited data

How the results depend on the processing

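No paired analysis was possible because peaks were called on the 4 libraries of a group together, and for the same reason no replicate could be left out. Of 128 recomputed values, 87 stayed within 1.5 times the reported one or within its interval and 41 moved. The moved counts of the main comparisons follow as the new value against the reported one. With a score of 200 or more required, LPS-opened regions numbered 4 against 11, LPS-closed 1 against 3, T0-closed 1 against 12, T0-opened-in-LPS 0 against 2, T0-closed-in-LPS 0 against 8, LPS-opened from T0 to T0-LPS 6 against 16 and LPS-closed there 0 against 2. With lists shortened to equal length, LPS-opened numbered 18, regions risen with LPS 6 against 10, T0-opened 6 against 0 and T0-closed 3 against 12, so that opened regions outnumbered closed ones, fallen with T0 2 against 4, T0-opened-in-LPS 5, fallen with T0 in LPS 0 against 1, and LPS-closed from T0 to T0-LPS 5. With a reciprocal overlap of 50%, LPS-closed numbered 5, T0-opened 7, T0-closed 19, T0-opened-in-LPS 4 and LPS-closed from T0 to T0-LPS 5. Within 50 kb, where 48 of the 73 regions remained, T0-closed numbered 6, T0-opened-in-LPS 1, T0-closed-in-LPS 5 and LPS-opened from T0 to T0-LPS 10. When only regions in both lists were ranked, 2 regions fell with T0 (the Cs and Eif3c sites, while those of Cnpy2 and Sgf29 were under the step) and 0 with T0 in LPS. With that ranking 12 regions rose with LPS (20.7%, against 5.90% of all regions), and the median move of member regions with T0 turned from -5.91 to 2.08 points, against 0.13 over all regions. With LPS it was 5.91 against -0.03 over all regions, and with T0 in LPS -0.23 against 0.06. With a step of 10 points, 20 rose and 9 fell with LPS (10 and 2 as reported), 3 rose and 12 fell with T0 (0 and 4), and 6 rose and 13 fell with T0 in LPS (1 and 1). Counts of opened and closed regions thus depend on list length and on weak peaks. Over whole regions, NF-kB matched 42.9% of the member regions that opened or rose and 13.5% of the others. The alternatives for T0-LPS against T0 were added after seeing the data.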

Other observations

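RefSeq promoters, the 250 bases before to 50 after a start, were scanned for the same motifs as the regions. The Ltb promoter held an NF-kB match, as the Il6 promoter did, and 4.51% of 32851 mouse promoters held one. No NF-kB match was found in the promoter entries of Tnf, Lta, Il12a and Il12b. Lta held 2 STAT matches and Ltb 1, against 8.30% of promoters with any. Ltb had no peak within 1 kb of its TSS in any list, and the Il6 promoter peak ranked between 33.5 and 40.4 in the 4 lists.

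Il10, the gene of an anti-inflammatory cytokine, had 2 LPS-opened regions. The stronger, 4304 bp upstream of its TSS, was at percentile 46.7 in LPS and 34.2 in T0-LPS and absent from Veh and T0. A site 72571 bp downstream was at 9.43 in Veh, absent from T0, and at 58.9 in LPS and 55.0 in T0-LPS.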
